A study of Rattus norvegicus with 24 samples.

Results

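The comparison concerned spleen lymphocytes of male Sprague-Dawley rats, an outbred laboratory strain, at early against late ages. Of the 24 arrays of the series, 4 measured this tissue, at 4, 10, 18 and 24 months, and the other 20 arrays cover 5 other tissues of the same ages. The arrays at 4 and 10 months formed the early group and those at 18 and 24 months the late group, 2 against 2, as the ages in the labels gave them. Each array held total RNA of spleen lymphocytes pooled in equal amounts from 10 rats, and the same rats gave the other tissues at each age. The labels name no drug or diet given to any group. The study asked how expression changes with age relate between tissues. Differences between single rats are not seen in a pool. The ages within a group stand in for replicates, so the spread used below is that between pools of 2 ages and holds any change from 4 to 10 or from 18 to 24 months.

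The spleen filters the blood and holds T cells, B cells, plasma cells and natural killer cells, beside macrophages, neutrophils and red cells in its red pulp. Natural killer cells and cytotoxic T cells kill target cells with granules that hold perforin, which opens membranes, and granzymes, which are serine proteases that start cell death in the target. With age, the thymus releases fewer new T cells, and naive cells give way to cells that have met antigen. Ribosomal proteins build the ribosome, and their mRNAs begin with a run of pyrimidines through which growth signals control their translation.

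The values are MAS5.0 signals, the brightness of a probe set scaled to the same trimmed mean on each array. Signals were floored at 100 and set on a log2 scale, and 7741 of 10412 genes reached 100 on at least 3 of the 4 arrays and were tested. The lymphocyte label was checked against markers. Cd3g of the T cell receptor complex had signals of 8871, 9759, 11425 and 11478 at 4, 10, 18 and 24 months, the order in which all signals are given below, and the kinase Lck had 10499, 11118, 13372 and 12430. Of the 7 defining B cell markers only Cd79b had a probe set named here, with 691, 1119, 1746 and 1456, and 4 of 6 natural killer markers had one. Markers of other cells gave signals as well. Hbb, a globin of red cells, reached 30158, 14920, 16459 and 27570, and the macrophage gene C1qa 692, 848, 961 and 1073. The pancreatic trypsinogen gene Prss1 had 193, 32.7, 26.1 and 277, and the liver gene Alb 431, 168, 177 and 289.9, both with the first and last arrays above the others. Array medians ran from 219 to 235. The 3′ over 5′ probe sets of Actb differed by 3.74, 2.63, 2.33 and 1.88 on the log2 scale and those of Gapdh by 2.40, 1.78, 1.17 and 1.16, a measure of RNA integrity that moved with age. Its part in the differences below was not tested. Across the tested genes, the 18- and 24-month arrays correlated at 0.962 and the 4- and 18-month arrays at 0.934, the highest and the lowest of the 6 pairs.

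The genes that limma called higher at late ages were Gpr15lg and the granzyme genes Gzmb and Gzmk. Both late arrays lay above both early ones for 1517 genes (19.6% of those tested) and below them for 1550 (20%). With a difference of at least 2-fold besides, 63 genes were higher (0.814%) and 25 lower (0.323%). Limma on the 4 arrays, with 2 residual degrees of freedom a gene and Benjamini-Hochberg adjustment over all genes tested, called 3 genes higher (0.0388%) and 0 lower (0.0%) at an adjusted p under 0.05. At an unadjusted p under 0.05 it gave 381 higher (4.92%) and 239 lower (3.09%). Fitted on all 24 arrays, where the 6 tissues share their spread, limma called 21 higher (0.271%) and 2 lower (0.0258%). The same 3 were among them, and each of the 23 had its 2 age groups apart. This fit takes the same differences from the same 4 spleen arrays, so the overlap is no separate support. Over all tested genes the median difference was -0.01 on the log2 scale, with a median SE of 0.26. An exact two-sided permutation test of 2 against 2 arrays cannot give a p below 0.333, so it was not run gene by gene. With 1 array left out, a group of 1 array is assumed to vary like the other group, which alone gives the spread with 1 residual degree of freedom, so these counts say little of how firm the calls are. Without the 10-month array limma called 71 higher and 31 lower, without the 18-month array 21 and 12, without the 24-month array 15 and 9, and without the 4-month array 3 and 0. The 2-fold counts were then 191 and 117, 100 and 74, 90 and 109, and 115 and 63, as a rule over 3 arrays asks less.

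**Figure D1:**
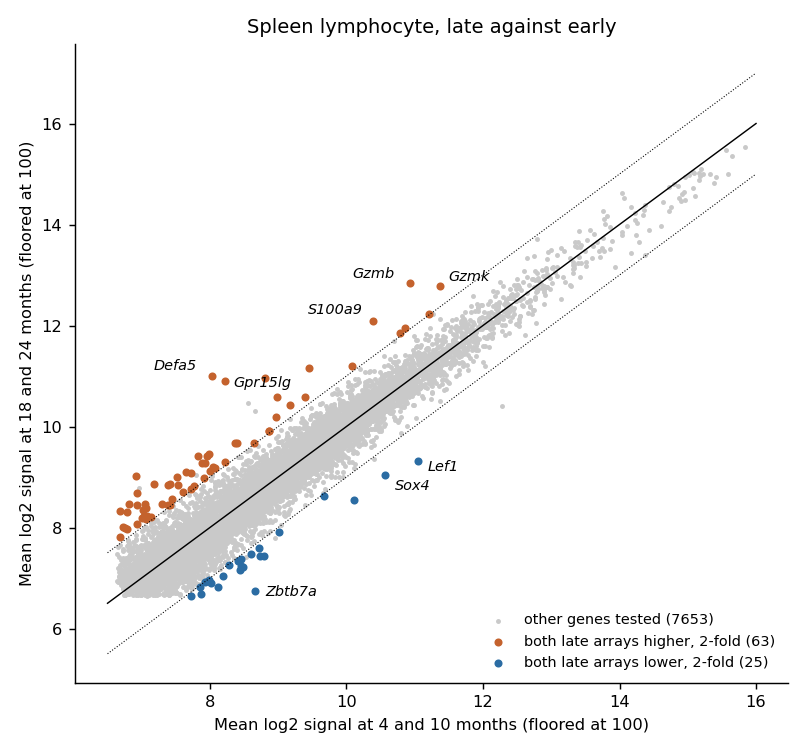
Mean log2 signal of each tested gene at 18 and 24 months (y axis) against 4 and 10 months (x axis), floored at 100; the solid line marks no difference and the dotted lines 2-fold. The 63 genes higher and 25 lower on both late arrays are coloured, Gzmb and Gzmk stand out among the bright genes above the line and Lef1 and Sox4 below it, and grey points beyond a dotted line are genes whose age groups overlap.

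Gpr15lg, which encodes a secreted ligand of the lymphocyte homing receptor Gpr15, changed most among the genes limma called. Its signals were 272, 328, 2179 and 1666. Both late arrays lay above both early ones, by a difference of 2.67 ± 0.23 (SE) on the log2 scale, or 6.38-fold (limma adjusted p = 0.00483). Granzyme B, encoded by Gzmb, had signals of 1625, 2342, 8395 and 6366. It rose by 1.91 ± 0.22 (SE, limma adjusted p = 0.0319), and the lowest late array exceeded the highest early one by more than 2-fold. Granzyme K, encoded by Gzmk and typical of memory cytotoxic T cells, had 2468, 2843, 6582 and 7465, with both late arrays above both early ones. It rose by 1.40 ± 0.17 (SE, limma adjusted p = 0.0349). In such bulk RNA, more cells of a type and more RNA per cell cannot be told apart. The direction held for the 3 genes under all 15 other settings, but Gpr15lg stayed past the threshold under 11 of them, Gzmb under 6 and Gzmk under 5. Their highest adjusted p in limma were 0.301, 0.523 and 0.336. The counts of settings include the fits with 1 array left out, and passing in those says little of how firm a call is. Over the 15 settings the differences ran from 2.48 to 2.87 for Gpr15lg, 1.64 to 2.17 for Gzmb and 1.30 to 1.51 for Gzmk.

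**Figure D2:**
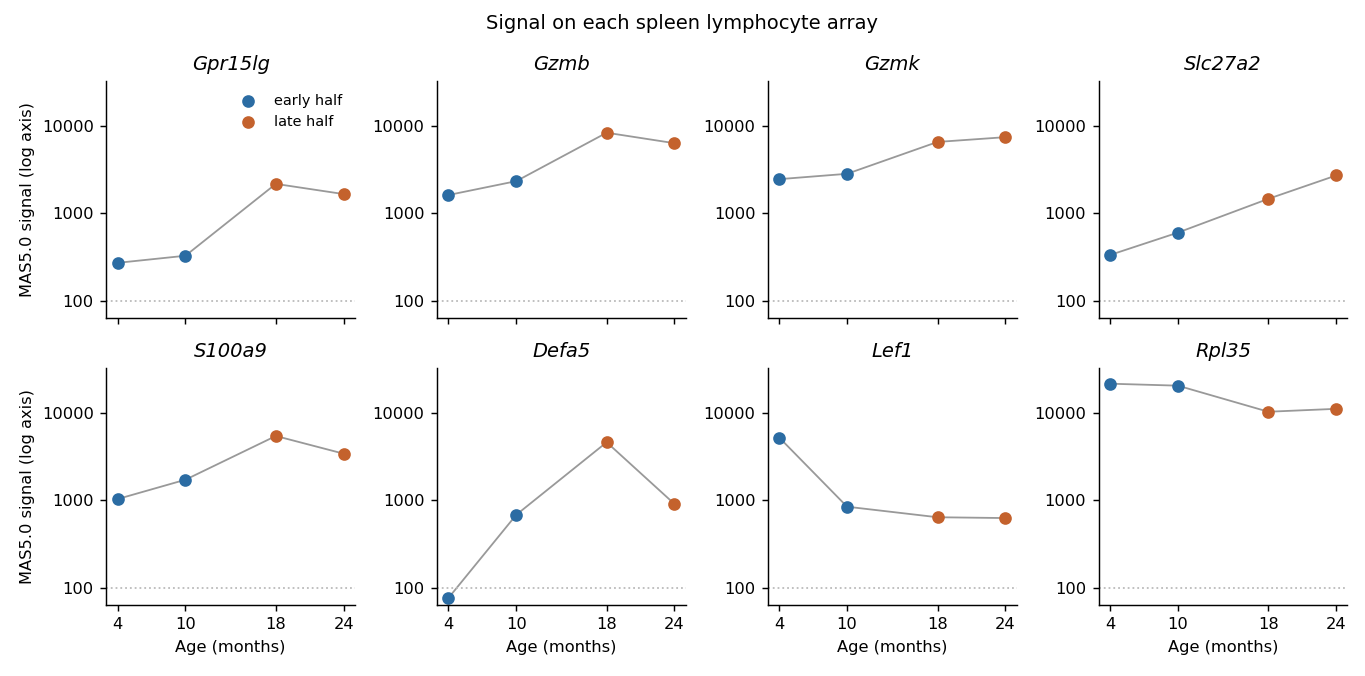
MAS5.0 signal on a log axis against age in months for 8 genes on the 4 spleen lymphocyte arrays, 1 point an array, early ages in blue and late ages in orange; the dotted line is the floor of 100. Gpr15lg, Gzmb, Gzmk, Slc27a2 and S100a9 lie higher on both late arrays, Defa5 peaks at 18 months, Lef1 drops from 4 to 10 months, and Rpl35 is lower on both late arrays.

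The other 18 genes called higher in the fit on 24 arrays included genes of lipid handling, oxidative stress and myeloid cells. Slc27a2, an acyl-CoA synthetase that activates long-chain fatty acids, had 335, 604, 1469.8 and 2721, higher at every step, with a difference of 2.15 ± 0.34 (SE, limma adjusted p = 0.0014 on 24 arrays and 0.118 on the 4). Osgin1, an oxidative stress-induced growth inhibitor, had 50.6, 147, 509 and 529.8, so that 1 early array lay under the floor and the difference of 2.10 understates the change (limma adjusted p = 0.00241 on 24 arrays). The calprotectin subunits S100a8 and S100a9, made by neutrophils and monocytes, differed by 1.60 and 1.69. Their signals were 202, 255, 805 and 587 and 1039, 1728, 5472 and 3432, highest at 18 months and still above both early arrays at 24 months. Clec4a3, a C-type lectin of myeloid cells, had 432, 597, 1537 and 1515 (1.59 ± 0.23 SE), and Tpp1, a lysosomal protease, 282, 383, 842 and 799.8 (1.32 ± 0.25 SE). Klra5, a lectin-like receptor of the family carried by natural killer cells, had 235, 252, 437 and 874, with the 24-month array highest. Upp1, which splits uridine, had 71.5, 148, 561 and 297, and Cdhr1, a cadherin-related protein, 214, 299, 777 and 639.9. In both, each late array exceeded each early one. Dsp of desmosomes had 172, 196, 441 and 593 and the Wnt inhibitor Sfrp1 203, 275, 546 and 698. Rin2, with 213, 189, 621 and 486, has another probe set that differed by -0.16. The calls also included Myh2, Arhgef4, Cdh13 and Enpp5, with differences from 0.88 to 1.45. Ighl2 and Defa5, described below, were called in this fit as well. Qpct, which forms pyroglutamate ends of peptides, and the homeobox gene Meis3 were among the 12 highest separated genes, with 169, 125, 343 and 627 and 77.6, 105, 377 and 273, and were called by neither fit.

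The 2 genes called lower on 24 arrays were Zbtb7a and LOC102549828. Zbtb7a, a zinc finger transcription factor of lymphoid and red cell development, had 436, 372, 92.1 and 114, near the floor on both late arrays, a difference of -1.92 ± 0.30 (SE, limma adjusted p = 0.0112 on 24 arrays and 0.118 on the 4). LOC102549828, measured by a probe set whose probes can bind several transcripts, had 1541, 794, 378 and 373, lower at each step. Lef1, a transcription factor of thymocytes and naive T cells, had 5244, 849, 643 and 629. Tcf7, listed with Lef1 among the T cell identity genes below, had 5587, 6815, 6567 and 5496 and overlapped (-0.04 ± 0.18 SE). For Lef1 the 4-month array stood far above the other 3, and the difference of -1.73 ± 0.63 (SE) did not pass limma (adjusted p = 0.544). Sox4, a transcription factor of lymphocyte progenitors, also had its 4-month array far above the others, 2938, 782, 513 and 542, with a difference of -1.52 ± 0.48 (SE) and -0.45 on another probe set. The remaining genes among the 12 lowest were Mettl7b, Zfyve19, Abo, Eri3, Sfrp4, Hcrt, Foxj1 and Spata19. Their differences ran from -1.34 to -1.15, and their highest signal on any array was 512. Of the 25 genes lower at least 2-fold, 18 had all signals under 500 and 12 had an array under 100, against 25 and 20 of the 63 higher ones.

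The list of natural killer and cytotoxic genes, which cytotoxic T cells also express, had 17 members tested. Both late arrays lay above both early ones for 12 of them (70.6%, against 19.6% of all genes tested) and below for 0. The median difference was 0.58 on the log2 scale, and 4 members passed 2-fold. Limma called 2, Gzmb and Gzmk. This list and the lists below, with their members, were chosen with earlier results of these data known. Their shares against all genes are therefore descriptions and no test. Perforin, encoded by Prf1, had 2066, 2720.4, 4991 and 4588, a difference of 1.01 ± 0.19 (SE, limma adjusted p = 0.161). Nkg7, a granule membrane protein, had 1987, 1558, 3551 and 3798 (1.06 ± 0.19 SE, limma adjusted p = 0.159). Both late arrays exceeded both early ones in each of these genes. Klrd1, the CD94 receptor chain of natural killer cells, had 2495, 2127, 3921 and 3423, again with both late arrays above both early ones. Members that overlapped were Gzmf (-0.61), Ncr3, Xcl1, Klrk1 and Tyrobp. The median was 0.40 without the 10-month array and 0.78 without the 4-month one. The neutrophil, macrophage and plasma cell lists below also had medians above 0, and their part in these values was not tested. Summed over its members, the macrophage list gave signals of 34181, 44207, 60518 and 51693, with 10 of 22 members higher on both late arrays, and the neutrophil list 3878, 7293, 20708 and 9285, with 5 of 10.

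The promoters of these genes are shown because most members were higher together. RefSeq promoters of build GRCr8, from 250 bases before to 50 after the start, could be matched for 12 of the 17 tested members. Within the stretch to 20 bases after the start, 9 of the 12 (75.0%) held TGTGGT, the core letters bound by Runx factors, on either strand, against 15.3% of all 27457 promoters. CAGGAA and GGAAGT, letters bound by Ets factors and overlapping in part, were in 7 (58.3% against 26.4%) and 5 (41.7% against 21.1%). Of the 9 genes with TGTGGT, 4 (Gzmf, Klrk1, Ncr3 and Xcl1) were among those whose age groups overlapped. A match of letters is a description of the sequence, not of binding. The match nearest the start is printed in capitals in a 30-base window, 5′ to 3′ on the gene's strand, and reads ACCACA where it lies on the other strand, for Gzmb at chr15:34462579-34462608 on the minus strand, Gzmk at chr2:46582178-46582207 on the minus strand, Prf1 at chr20:29788894-29788923 on the plus strand and Nkg7 at chr1:102981379-102981408 on the plus strand.
Gzmb: tgtgggttctgcTGTGGTtacttcatggtt
Gzmk: gaaccctcatccACCACAcactgacagcaa
Prf1: tggggacctgtgACCACAatctgggggcag
Nkg7: gggccctcccccACCACAcaggagaggagc

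T cell identity genes had a median close to that of all genes. Among 17 T cell identity genes tested, 6 were higher on both late arrays, 3 were lower (against 19.6% and 20% of all genes), the median was 0.09 and limma called 0. Cd3d was at 3625, 2998, 3059 and 3525 with overlapping age groups. Cd8a, a chain of the CD8 co-receptor, had 624, 348, 879 and 1055, a difference of 1.05 ± 0.29 (SE, limma adjusted p = 0.464). The other chain, Cd8b, had 305, 291, 429.5 and 360, higher on both late arrays by only 0.40 ± 0.26 (SE, limma adjusted p = 0.724). Cd4 had 230.3, 165, 192 and 248 and overlapped. Cd3e differed by 0.50 ± 0.26 (SE) on the log2 scale. Among 10 genes of T cell activation and memory, 3 were higher on both late arrays and 1 lower (against 19.6% and 20% of all genes). Interferon gamma, encoded by Ifng and released by cytotoxic and helper cells, had 149, 142, 228 and 335 (0.92 ± 0.32 SE). Fas ligand, a death-inducing surface protein, had 816, 1124, 1347 and 1483, higher at each age, and the Il2rb receptor chain 1556, 1340.1, 1839.5 and 2125. None of these 3 passed limma, with adjusted p of 0.521, 0.569 and 0.591. Ctla4, which restrains T cells, had 117, 205, 139 and 276 and overlapped.

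B cell genes had a median of -0.03 over 9 tested members, which was above 0 under 3 of 10 other settings, with 3 higher and 1 lower on both late arrays (against 19.6% and 20% of all genes). Cd79b, a signalling chain of the B cell receptor, had 691, 1119, 1746 and 1456, both late arrays above both early ones (0.86 ± 0.25 SE, limma adjusted p = 0.479). Cxcr5 and Syk were lower on average, by -0.33 and -0.32, and overlapped. Of 10 plasma cell and immunoglobulin genes, 5 were higher and 0 lower (against 19.6% and 20% of all genes), with a median of 0.27 that came to 0.09 without the 4-month array. Txndc5 and Creld2, which help to fold secreted proteins, had 1777, 3219, 4136 and 3813 and 839.8, 1282, 1911 and 1649. In both, the 4-month array was lowest and the late arrays were highest. The light chain gene Iglc1 had 1969.8, 2825, 3192 and 2143, with overlapping age groups, and limma called 0 genes of either list. Ighl2, an immunoglobulin heavy chain gene by its symbol, was not on the list. It had 512, 952, 2043 and 2539, with both late arrays above both early ones (1.71 ± 0.29 SE). Its limma adjusted p was 0.0266 on 24 arrays and 0.124 on the 4.

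The macrophage and neutrophil lists had medians above 0. Among 22 macrophage and monocyte genes, 10 were higher on both late arrays (45.5% against 19.6%) and 0 lower, with a median of 0.45, which came to 0.13 without the 4-month array. Fcer1g, the shared signalling chain of Fc receptors in myeloid and natural killer cells, had 6603, 7628, 15247 and 11845 (0.92 ± 0.19 SE), and Fcgr3a, the low-affinity receptor for IgG, 672, 766, 1359 and 1279 (0.88 ± 0.20 SE). Cd68 of macrophage lysosomes was higher on both late arrays as well, with 609, 1002, 1257 and 1199, and Csf1r, the receptor that keeps macrophages alive, overlapped at 1103, 672, 793 and 1006. Hmox1, which breaks down heme, was low on the 4-month array alone (639.8, 2378, 1997 and 1807). The neutrophil and defensin list had 10 members tested of 16 on the array, of which 5 were higher on both late arrays and 0 lower (against 19.6% and 20% of all genes). The median was 1.25 over the members that passed the filter and 0.47 over all 16. Its defensins peaked on 1 array. Defa5 had 76.6, 685, 4639 and 911, a difference of 2.97 ± 0.85 (SE) with the first array under the floor. RatNP-3b and Np4, defensins of neutrophil granules, had 198, 724, 3382 and 599 and 217, 759, 2214 and 718. At 24 months RatNP-3b and Np4 lay under their 10-month signals, so their age groups overlapped. Without the 18-month array the median of the list was 0.50. Cxcr2 and Mmp8, also neutrophil genes, stayed under 100 on all 4 arrays.

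Of 25 red cell genes tested, 9 were higher and 2 lower on both late arrays (against 19.6% and 20% of all genes), with a median of 0.20, or 0.06 over all 30 on the array. Ahsp, which binds free alpha globin, had 442, 754, 1201 and 1569, higher at each age (1.25 ± 0.28 SE), and the carbonic anhydrase gene Car1 175, 374, 481 and 636. The embryonic globin Hbe1 had 523, 513, 132 and 439, lowest at 18 months, and Hbb overlapped. Among 22 endothelial and stromal genes 6 were higher and 6 lower, 27.3% each way, against 19.6% and 20% of all genes. Plvap, of the diaphragms of fenestrated vessels, had 69.5, 127, 330.2 and 383 (1.66 ± 0.31 SE), and the basement membrane collagen Col4a2 had 151, under 100, 372 and 326. Col1a1 and Col14a1 were lower on both late arrays, by -0.76 and -0.92. The brighter Fn1 was higher on both late arrays, with 1089, 842, 1722 and 1566 (0.78 ± 0.21 SE). Limma called 0 genes of these 2 lists, and no signal of Plvap, Col4a2, Col1a1 or Col14a1 exceeded 383.

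**Figure D3:**
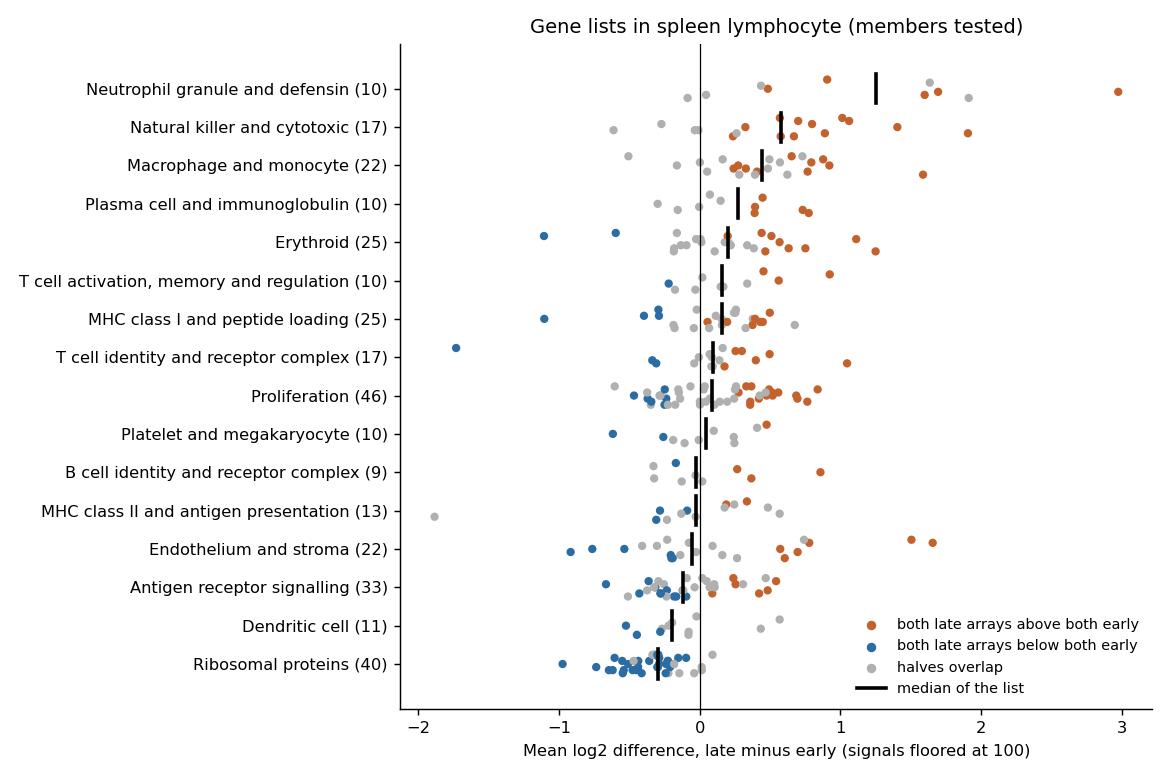
Mean log2 difference, late minus early, of each tested member (points) of 16 gene lists in spleen lymphocytes, with the number tested in brackets; orange and blue points are genes whose age groups do not overlap, grey ones are genes whose groups overlap, and the black bar is the list's median. The natural killer list lies mostly to the right, with 12 of 17 members separated, and the ribosomal list to the left, with 30 of 40.

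Most ribosomal protein genes were lower on both late arrays, each by a small amount. Of 40 tested, 30 were lower on both late arrays (75.0%, against 20% of all genes) and 0 higher, with a median of -0.30. Rpl35 of the large subunit had 21705, 20606, 10363 and 11192, with both late arrays well under both early ones, a difference of -0.97 ± 0.16 (SE, limma adjusted p = 0.124). Rpl34 had 18286, 18457, 9339 and 13046 (-0.73 ± 0.19 SE) and Rps15a of the small subunit 23182, 27017, 20236 and 12660 (-0.64 ± 0.23 SE), both with the age groups apart. The step was from 10 to 18 months, with a median of -0.31, against 0.01 from 4 to 10 and -0.04 from 18 to 24 months. Rpl12, Rpl13a and Rplp0 were not lower, with differences of 0.01, 0.01 and 0.09. Limma called 0 of the 40, and 13 had an unadjusted p under 0.05 in the lower direction, against 3.09% of all genes. Left-out arrays moved the median from -0.37 to -0.28, and quantile normalization to -0.18. The 3′ over 5′ measure of RNA integrity moved from 4 to 10 months as well as from 10 to 18 months. It was 3.74, 2.63 and 2.33 at these 3 ages for Actb and 2.40, 1.78 and 1.17 for Gapdh. Its part in the ribosomal values was not tested.

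The start sites of these genes are shown because their mRNAs are known for a pyrimidine run at the 5′ end. Start sites from RefSeq, build GRCr8, could be matched for 35 of the 40. Within 20 bases on each side of the start, CTTTC was found on the gene's strand in 17 of the 35 (48.6%), against 5.04% of all 27457 promoters. CTCTT, which can overlap it, was in 13 (37.1% against 5.49%) and CTTCC in 12 (34.3% against 8.36%). The 15 bases before and after the start are printed 5′ to 3′ with CTTTC in capitals, for Rpl35 at chr3:43165907-43165936 on the minus strand, Rpl34 at chr2:221962269-221962298 on the minus strand, and Rps15a at chr1:181860270-181860299 on the minus strand. Rpl34 has its pyrimidine run with other letters and so no capitals. Rpl13a and Rplp0, which were not lower, are added for comparison, the first with CTTTC and the other without, at chr1:104748899-104748928 on the minus strand and chr12:46718376-46718405 on the minus strand.
Rpl35: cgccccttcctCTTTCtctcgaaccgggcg
Rpl34: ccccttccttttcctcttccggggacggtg
Rps15a: cggcgttttCTTTCcacagtcaccatggtg
Rpl13a: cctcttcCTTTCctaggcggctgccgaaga
Rplp0: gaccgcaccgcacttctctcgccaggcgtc

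The MHC class I and class II lists had medians near 0, with several members set apart by the 24-month array. Of 25 MHC class I and peptide loading genes tested, 7 were higher and 4 lower on both late arrays (against 19.6% and 20% of all genes), with a median of 0.16 that came to 0.03 without the 4-month array. RT1-N2, a non-classical class I gene, had 199.6, 335, 46.6 and 145, lower on both late arrays (-1.10 ± 0.37 SE). RT1-CE5, a classical gene of the rat class I cluster, had 1087, 1200.2, 1031 and 3225, with the 24-month array alone high, through a probe set that can bind several transcripts. Its other probe sets differed by 0.81 to 0.95. RT1-CE10 (1200, 675, 387 and 2940), RT1-CE12 (10619, 12543, 5231 and 24740) and RT1-CE16 (332, 445, 361 and 644) were also highest on the 24-month array. RT1-A3, RT1-S3 and B2m were not. Among 13 class II genes, 2 were higher and 3 lower (against 19.6% and 20% of all genes). RT1-Bb, a class II beta chain, had 3671, 6741, 3835 and 474, low on the 24-month array alone, but its other probe set differed by 0.63 against -1.88. RT1-Ba had 3064, 3325, 5235 and 1410, also lowest at 24 months, whereas RT1-Da had 20586, 16348, 23502 and 18305. Cd74, the invariant chain that travels with class II, was at 32509, 31455, 32840 and 29913. The rats are outbred, and sequence differences of these genes between pools were not tested. Of 11 dendritic cell genes, 0 were higher and 3 lower (against 19.6% and 20% of all genes), with a median of -0.20. The differences of 2 members, Cd86 (0.57) and Itgae (0.43), were above 0 with overlapping age groups, and those of 9 were below. Tcf4, a factor of plasmacytoid dendritic and B cells, had 3069.7, 3351, 2072 and 2403 (-0.52 ± 0.18 SE), with -0.17 on its other probe set.

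In antigen receptor signalling, 6 of 33 genes were higher and 11 lower on both late arrays (33.3% lower, against 20% of all genes), with a median of -0.12 that came to 0.04 without the 4-month array. Pik3cd, the lymphocyte catalytic subunit of PI 3-kinase, had 2255, 1328, 1178 and 1010.2, lower at each age (-0.67 ± 0.26 SE). Lcp2, an adaptor of the T cell receptor, had 403, 574, 716 and 686, higher on both late arrays, but its other probe set differed by -0.04. The calcium sensor Stim1 had 750.3, 726, 913 and 1166. Rela of the NF-kappa-B family had 3233, 1519, 1395 and 1738, high at 4 months alone. Of 46 proliferation genes, 15 were higher and 6 lower (against 19.6% and 20% of all genes), with a median of 0.09 that was 0.0027 without the 24-month array and 0.23 without the 18-month one. Ube2c, which marks mitotic proteins for breakdown, had 640.2, 868, 1031 and 1411, and Dut, which keeps uracil out of DNA, 1074, 1173, 1687 and 1933. Kif2c, a mitotic kinesin, and Cdca8, of the chromosomal passenger complex, differed by 0.76 and 0.84, the latter with its 4-month array at 35.8. The limma count was 0 in both lists.

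Over the 4 ages, more genes passed 2-fold between 4 and 10 months than at either later step. From 4 to 10 months, 150 genes were higher (2.0% of those at 100 or more on both arrays) and 129 lower (1.72%). From 10 to 18 months the numbers were 94 (1.26%) and 78 (1.04%), and from 18 to 24 months 78 (1.04%) and 81 (1.08%). With 1 array an age, none of these steps has a replicate check. The 3′ over 5′ measure of RNA integrity was highest on the 4-month array, 3.74 for Actb and 2.40 for Gapdh. Its part in these counts was not tested. The separated genes had their largest step between 10 and 18 months in 52 of the 63 higher and 19 of the 25 lower ones, where the rule asks for a gap. Genes higher at each of the 3 steps numbered 473 (6.11%), 83 of them at least 2-fold from 4 to 24 months (1.07%), and genes lower at each step 409 (5.28%), 50 of them 2-fold (0.646%). The largest differences of this kind were in Slc27a2 (3.02 from 4 to 24 months), Eif4e3 (2.44), Osgin1 (2.41), Ighl2 (2.31) and Mybpc3 (2.06). Eif4e3, a cap-binding protein, had 95.4, 449, 533 and 543 and Mybpc3 of muscle filaments 51.1, 376, 415 and 418, so both made most of their step from a first array under the floor. Ighl2 had 512, 952, 2043 and 2539, spread over the steps. The largest in the other direction were in Lef1 (-3.06), LOC102549828 (-2.05), Dolpp1 (-1.87), Tmem218 (-1.74) and the chaperone gene Hspa4 (-1.72), the last with only its 24-month array low (330.3, 270.2, 256 and 71.1).

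**Figure D4:**
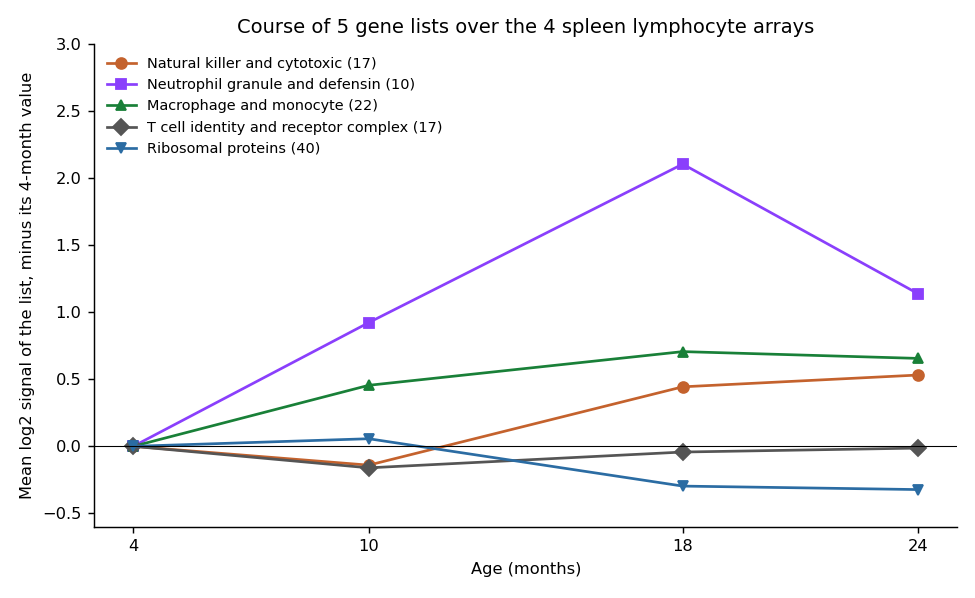
Mean log2 signal of the tested members of 5 gene lists against age in months, each minus its value at 4 months, 1 point an array. The neutrophil list peaks at 18 months (2.10) and the natural killer list is higher on both late arrays (0.44 and 0.53), while the ribosomal list is lower there (-0.30 and -0.32) and the T cell identity list ends near 0.

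Some genes lay under 100 on both arrays of one age group and at 200 or more on both of the other, so that only a bound of the change can be given. There were 10 such genes higher and 7 lower at late ages. Cdk5rap3 had 59.9, 54.7, 399.5 and 342, at least 3.70-fold higher. Hsd11b1, which regenerates active glucocorticoid inside cells, had 32.2, 73.5, 302 and 378, at least 3.38-fold higher. The bounds of Adpgk, an ADP-dependent glucokinase, and of C10h16orf89 were at least 3.13- and 3.01-fold higher, and Prss8, a membrane-anchored serine protease, was at least 2.97-fold lower (313, 282, 67.2 and 40.1). Bounds are taken from the mean log2 signal of the bright age group against 100, and carry no test.

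Whether the late changes of spleen lymphocytes differed from those of hypothalamus, pituitary, liver, kidney and bone was tested in the fit on all 24 arrays. The difference of differences passed limma for 4 genes (0.0517%). Gpr15lg was higher in spleen lymphocytes by 2.67, against -0.71 to 0.64 in the other tissues, and the difference from their mean was 2.44 ± 0.33 (SE, limma adjusted p = 0.00222). For Osgin1 it was 2.16 (adjusted p = 0.00882 in limma), for Slc27a2 1.98 (0.0121) and for Gzmb 1.68 (0.0459). Gpr15lg passed under all 16 other settings, Slc27a2 under 14, Osgin1 under 12 of 15 and Gzmb under 12 of 16. Gzmk was not among them, and its difference was 1.19 in hypothalamus and 0.62 in bone. The number of genes came to 33 without the 10-month spleen array, 12 without the 24-month, 7 without the 18-month and 2 without the 4-month one. The natural killer list had a median of 0.42 in bone and the neutrophil list of 0.81, against 0.58 and 1.25 in spleen lymphocytes, and the ribosomal list one of 0.22 in hypothalamus and 0.14 in bone, against -0.30. Since tissues share their rats, age was also fitted as a replicate block, which gave 4 calls as well. By the same rule of 2 late against 2 early arrays and 2-fold, 171 genes were higher and 76 lower in hypothalamus, 128 and 171 in bone, 72 and 29 in liver, 18 and 34 in kidney, and 13 and 5 in pituitary.

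**Figure D5:**
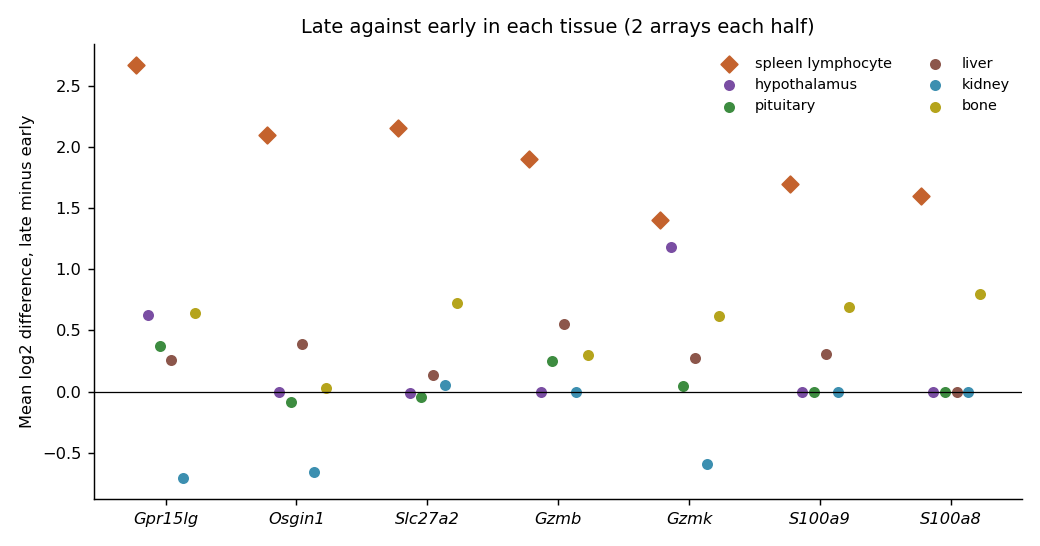
Mean log2 difference, late minus early, in each of the 6 tissues for 7 genes, with 2 arrays at early and 2 at late ages; diamonds are spleen lymphocytes and circles the other tissues. Spleen lymphocytes have the highest value for each of the 7 genes, with hypothalamus near it for Gzmk, and values of exactly 0 are genes under the floor of 100 on all 4 arrays of that tissue.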

How the data were processed

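RNA of each tissue and age was pooled equally from 10 rats and hybridised to 1 Affymetrix RAE230A array, which holds probe sets near the 3′ end of transcripts. The deposited values are MAS5.0 signal intensities on a linear scale, which the authors scaled to a target of 500 on each array with MAS 5.0. Detection calls were not used here, and arrays carry no read depth, so their number limits the precision. Of 15923 probe sets, 57 were controls, 12789 had 1 gene symbol, 312 several and 2771 none, and 12754 of those with 1 symbol were in the RefSeq gene table. For each of 10412 genes, the probe set at 100 or more on the most arrays was kept. Signals were floored at 100 and log2 transformed. Genes at 100 or more on at least 3 of the 4 spleen lymphocyte arrays (7741) were tested with limma 3.58.1 in R 4.3.3, late minus early. The test used lmFit and eBayes with an intensity trend, two-sided, with Benjamini-Hochberg adjustment over all genes tested and a threshold of 0.05. The code was also run on simulated arrays with independent normal noise of limma's own spread. Such arrays cannot check the use of ages as replicates. The contrast with the mean of the 5 other tissues used all 24 arrays. Gene lists were described by counts and medians, with no set test. Named genes were the 12 highest and 12 lowest separated genes at 2-fold or more, the limma calls, the 5 largest steady courses in each direction, the bounds, defining markers and the members of lists with the largest differences, and the other genes named were chosen after their values were seen. Members and lists were chosen with earlier results of these data known. Other floors, filters, scalings, probe set rules, fits and left-out arrays were tried. Python 3.11.15 with numpy 2.4.6, pandas 2.3.3 and matplotlib 3.10.9 was used. Each age was 1 pool, so p-values measure the spread between pools of different ages. Promoters came from RefSeq (GRCr8).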

Additional observations from a re-analysis of the deposited data

Results flagged for a closer look

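The difference between late and early ages in spleen lymphocytes departed from the mean of the 5 other tissues, by a test of the difference itself, for 4 genes. The departure was 2.44 on the log2 scale for Gpr15lg, 2.16 for Osgin1, 1.98 for Slc27a2 and 1.68 for Gzmb, with limma adjusted p of 0.00222, 0.00882, 0.0121 and 0.0459. Osgin1 and Gzmb lay under the floor of 100 on all arrays of at least 1 other tissue, where the difference is 0 by construction. With bone left out, the adjusted p in limma were 0.00318, 0.0089, 0.0089 and 0.0169.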

How the results depend on the processing

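Of 3 limma calls higher, 1 was left with at least 2 of 4 arrays, a floor of 50, median centring, no floor with log2 of the signal plus 16, or quantile normalization, 0 with a floor of 200, the mean of all probe sets or no intensity trend, and 21 on all 24 arrays. Left-out arrays gave 3 to 71. The 0 calls lower became 2 on 24 arrays, 4 with no filter and 0 to 31 with left-out arrays. A linear trend on age left both counts within 1.5 times. The 63 separated 2-fold genes higher became 39 with a floor of 200, 337 at 1.5-fold, 13 at 3-fold and 90 to 191 with left-out arrays. The 25 lower became 13 with all 4 arrays, 39 with at least 2 of 4 or no filter, 5 and 57 with floors of 200 and 50, 292 and 2 at 1.5- and 3-fold, 51 with 16 added, and 63 to 117 with left-out arrays.

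The 4 calls against other tissues became 19 with at least 2 of 4 arrays, 48 and 2 with floors of 200 and 50, 7 with the mean of probe sets, 15 with median centring, 46 with no filter, 2 with 16 added, 18 with quantile normalization, 9 with no trend and 2 to 33 with left-out arrays. Age as a replicate block gave 4 calls. With floors of 200 and 50, the steps gave 71 and 300 higher and 60 and 270 lower from 4 to 10 months, 42 and 221 higher and 20 and 245 lower from 10 to 18 months, and 26 and 208 higher and 31 and 204 lower from 18 to 24 months.

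Among list medians larger than the spread between arrays of an age group, a sign change was seen for mast cell genes (-0.22 to 0.39 with left-out arrays), endothelium (0.025 with quantile normalization, -0.16 to 0.092 with left-out arrays), other organs (-0.13 to 0.0019), cytokines (-0.068 to 0.14) and antigen receptor signalling (-0.11 to 0.035). Smaller medians also changed sign with a left-out array, in interferon-induced genes (-0.12 to 0.36), MHC class II (-0.083 to 0.21), platelet genes (-0.13 to 0.19), B cell genes (-0.096 to 0.038), glucocorticoid response (-0.17 to 0.15), immediate early genes (-0.10 to 0.084), cell cycle inhibitors (-0.074 to 0.098), apoptosis regulators (-0.031 to 0.07), heat shock proteins (-0.098 to 0.0074) and DNA repair (-0.0029 to 0.046). With left-out arrays Ctla4 ran from -0.16 to 0.83, Cxcr5 from -0.78 to 0.12, RT1-CE5 from -0.15 to 1.5 and Rela from -1.05 to 0.035. Of the other values of list medians 277 stayed within the spread between arrays and 44 did not, and of those of named genes 1124 stayed on their side of the threshold, 71 came under it and 23 no longer passed. The cause was not tested. Signals near the floor of 100 limit what can be seen of dim genes.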

Other observations

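Further gene groups were counted in the same way, where 19.6% of all genes tested were higher on both late arrays and 20% lower. Of 65 genes of oxidative phosphorylation, 24 were higher and 17 lower, with a median of 0.08 that was 0.024 without the 4-month array and 0.15 without the 10-month one. Proteasome genes had 13 higher and 5 lower of 35, with a median of 0.14, or 0.07 without the 4-month array. Glycolysis genes had 9 higher and 4 lower of 20, with a median of 0.13, or 0.23 without the 18-month array. Chemokines and their receptors had 7 higher and 3 lower of 24, with a median of 0.15, or 0.0 over all 33 on the array. With left-out arrays the median ran from 0.027 without the 4-month array to 0.32 without the 10-month one. Interferon-induced genes had 4 higher and 1 lower of 26, with a median of -0.03 that was 0.36 without the 10-month array and 0.14 without the 24-month one. The heme and iron list had a median of 0.29 over 15 genes, which was 0.042 without the 4-month array, 0.05 without the 24-month one and 0.17 over all 20 on the array. Of 1561 probe sets with no gene symbol at 100 or more on at least 3 arrays, 10 were higher and 15 lower on both late arrays by at least 2-fold. Among the 88 separated 2-fold genes, 6 had another probe set at 100 or more on at least 3 arrays, and 3 of these differed in the other direction, in Dock9 (1.11 and -0.69), Htra3 (1.45 and -1.29) and Rin2 (1.45 and -0.16).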
